A study of Mus musculus with 33 samples.

Results

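The Vκ8 family of the mouse immunoglobulin κ light-chain (Igk) locus was examined through 10 of its genes, IGKV8-16, IGKV8-18, IGKV8-19, IGKV8-21, IGKV8-23-1, IGKV8-24, IGKV8-26, IGKV8-27, IGKV8-28 and IGKV8-30, out of 163 Vκ genes with a value in every library. These 10 members form a fixed list of gene names, and family sums are sums over them. Of the other 3 Vκ8 genes in the tables, IGKV8-22 and IGKV8-31 are pseudogenes and IGKV8-34 is functional, and their values are given at the end. VDJ-seq, a method that enriches the joints between Vκ and Jκ segments in genomic DNA and identifies the Vκ gene of each, had been performed with ex vivo sorted bone marrow B cell precursors of C57BL/6 mice between 4 and 5 weeks of age. There were 6 pro-B and 4 pre-B libraries of Wapl+/+ mice, called wild-type here, and the same numbers of Wapl ∆P1,2/∆P1,2 mice, called mutant. The homozygous mutant allele lacks a Pax5-binding site of the Wapl promoter and a region downstream of Wapl with another Pax5 site, so that early B cells hold more Wapl than in the wild-type. Wapl releases cohesin from chromatin, and the study asked whether its level matters for the choice of Vκ genes. Pro-B cells had been sorted as Kit+ CD25- and pre-B cells as Kit- CD25+ cells. A table of Vκ joints holds no marker by which these identities could be tested.

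A Vκ gene is joined to a Jκ element by the RAG recombinase, which cuts at the recombination signal sequence (RSS) beside each segment. The signal of a Vκ gene consists of a heptamer, a spacer and a nonamer, and the likeness of heptamer and nonamer to the consensus is known to influence how often a gene is used. Vκ genes lie in both orientations, so that joining to Jκ deletes the DNA in between for some genes and inverts it for others.

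The 10 genes lay within 270 kb on chromosome 6 (mm9, chr6:70067055-70337232), between 335 kb (IGKV8-16) and 605 kb (IGKV8-30) from Jκ1. This span holds 16 listed Vκ genes, of which 5 belong to the Vκ6 family. IGKV8-16, IGKV8-19, IGKV8-21, IGKV8-24, IGKV8-27, IGKV8-28 and IGKV8-30 are listed on the minus strand and as functional. IGKV8-18, IGKV8-23-1 and IGKV8-26 are listed as open reading frames on the plus strand, which is also that of Jκ1. The GENCODE vM1 annotation has a V gene at 9 of the 10 and none at IGKV8-23-1 (chr6:70190421-70190704). H3K27ac, a histone mark of active promoters and enhancers, had no called peak within the span in a library of Rag1 Cre/Cre pro-B cells. The peak nearest to any member lay 74.3 kb from IGKV8-30 (chr6:69989959-69992717).

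The signal of every member is shown because the members differ in it as well as in their use. The sequences were read from the mm9 genome beside the coding end of each gene, on the strand that holds the signal, with the heptamer and the nonamer in capitals and the 12-base spacer in lower case. They are given in locus order, from the gene farthest from Jκ1 to the closest.
IGKV8-30: CACAGTGcttcagcctcctACACAAACC
IGKV8-28: CACAGTGcttcagcctcctACACAAACC
IGKV8-27: CACAATGcttcagcctcctACAAAAACC
IGKV8-26: CACAGAGcttcagccgcctACACAAACC
IGKV8-24: CACAGTGcttcagccttctACATAAACC
IGKV8-23-1: CACAGTGcttcagcctcctACACAAACC
IGKV8-21: CACAGTGcttcagtctcctACACAAACC
IGKV8-19: CACAGTGcttcagcctcctACACAAACC
IGKV8-18: CACAGAGcttcagctgcctACACAAACC
IGKV8-16: CACAGTGcttcagcctcctACACAAACC

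Of the 7 functional members, 6 carried the consensus heptamer CACAGTG, as did 77 of the 85 other functional Vκ genes, and the exception IGKV8-27 carried CACAATG. In turn, IGKV8-27 (signal at chr6:70121775-70121802, minus strand) was the only functional member with the consensus nonamer ACAAAAACC, which 33 of the 85 other functional Vκ genes held. The nonamer ACACAAACC was present in 5 of the 7 functional members and in 4 of the 85 others. Both IGKV8-18 (chr6:70306440-70306467, plus strand) and IGKV8-26 (chr6:70143792-70143819, plus strand) had the heptamer CACAGAG. For IGKV8-23-1 the best window after the listed plus-strand span had 2 mismatches to the consensus in the heptamer and 6 in the nonamer. The signal shown for it lay on the minus strand at chr6:70190393-70190420, directly beside the listed span.

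Several members were nearly the same in sequence, which bears on how their joints can be counted. The listed IGKV8-23-1 span was 100% identical over 275 bases to IGKV8-16 on the opposite strand, and IGKV8-16 aligned to the minus strand of that region (chr6:70190421-70190966) with 96.1% identity over 567 bases. IGKV8-18 and IGKV8-26 were 98.2% identical over 569 bases, IGKV8-19 and IGKV8-28 were 96.5% identical over 573 bases, and IGKV8-21 and IGKV8-30 were 94.0% identical over 551 bases. Over all 45 pairs of members the median identity of the aligned parts was 84.2%.

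The members also shared a feature before the gene. In the 300 bases before the listed start, the octamer ATTTGCAT or its reverse complement ATGCAAAT, a known element of immunoglobulin promoters, was found in 67 of the 92 functional Vκ genes (72.8%) and in 0 of the 7 functional members. All 7 held CTTTGCAT or ATGCAAAG, which differ from it by 1 mismatch and were found in 18 of the 92 functional genes (19.6%).

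Depth differed between the cell types. The values of a library are multiples of 1/6 of a common unit, and these units, which need not be single joints, summed to between 27178 and 56642 per pre-B library. The pro-B libraries held between 164 and 2514 units in wild-type (median 1339) and between 2016 and 6892 in mutant mice (median 2909). Wild-type pro-B library 2 stood apart with 164 units and 102 of the 163 genes listed at 0, and the main results that rest on it are given with and without it. The experiment numbers fall into 3 series, of which 1 holds both cell types. The labels do not say what a series is, nor whether libraries come from separate mice, so that p-values measure the spread between libraries. All values are percentages of the Vκ-Jκ joints of a library, so that a lower use of a gene and a higher use of other Vκ genes cannot be told apart.

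The family took 10.8%, 10.8%, 11.1% and 10.8% of all Vκ-Jκ joints in the wild-type pre-B libraries, a mean of 10.9% ± 0.151 (SD, n = 4). In the mutant pre-B libraries it took 9.78%, 8.66%, 9.73% and 7.94%, a mean of 9.03% ± 0.893 (SD, n = 4), and each of these was below every wild-type library. Wild-type pro-B libraries ranged from 1.83% to 8.23% with a median of 6.48% (mean 5.96% ± 2.27, SD, n = 6), and mutant pro-B libraries from 2.89% to 6.00% with a median of 3.58% (mean 3.98% ± 1.29, SD, n = 6). The lowest wild-type pro-B value is that of library 2, without which the mean was 6.79% ± 1.14 (SD, n = 5) and the lowest library 5.28%. The pro-B genotypes overlapped with and without this library, while all pro-B libraries were below all pre-B libraries of the same genotype. Within the series, the mutant family sum was lower by 1.55 and 2.13 percentage points in pre-B cells and by 2.92 and 1.04 points in pro-B cells. Without library 2, a step added after the data were seen, the mutant sum was lower by 4.93 points in the first of these pro-B series. On the scale of the deposited values, which were not rescaled to the Vκ joints of a library, the pro-B direction was the opposite, with a mean family sum of 0.00865 in wild-type and 0.01001 in mutant libraries, as the sum over all 163 genes was also higher in the mutant (0.152 to 0.377 against 0.0740 to 0.176 per library).

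**Figure D1:**
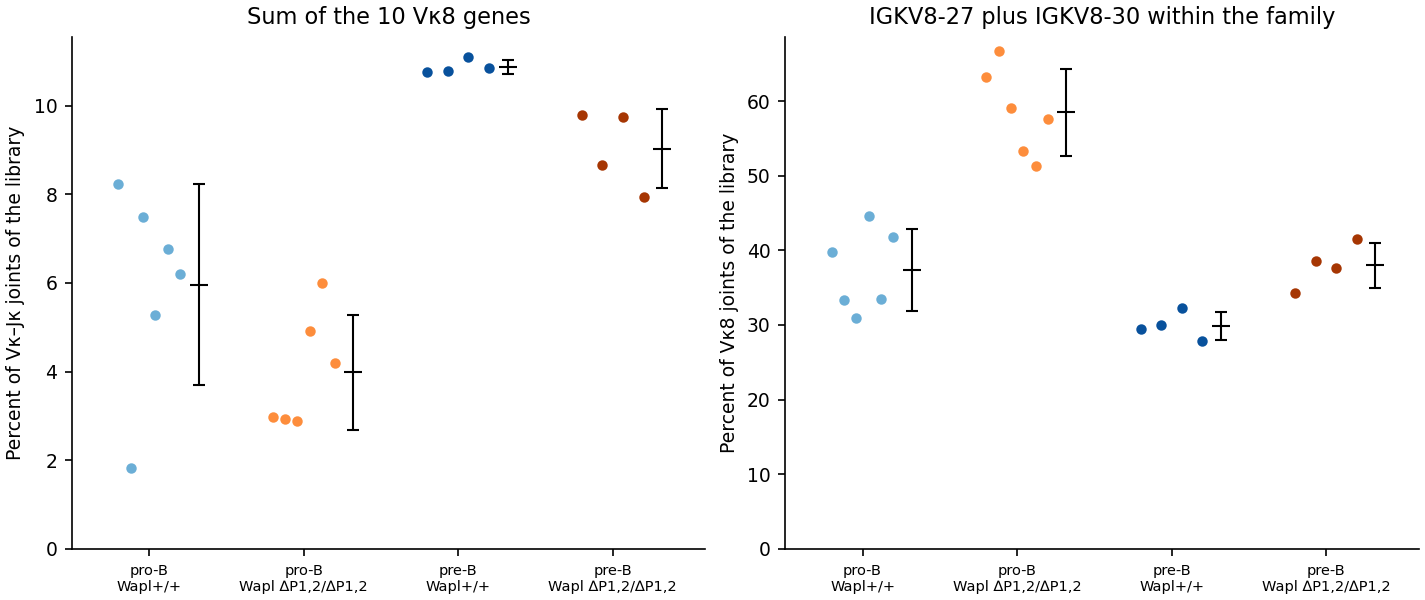
Family sum per library as a percentage of all Vκ-Jκ joints (left) and the share of IGKV8-27 plus IGKV8-30 among the Vκ8 joints (right), with each point a library and the bar the mean ± SD. The wild-type pre-B libraries sit at 10.9% ± 0.151. IGKV8-27 and IGKV8-30 were grouped after their values were seen. Their share is higher in the mutant libraries of both cell types without overlap, which is a description and no test.

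The members were used at very different frequencies. In wild-type pre-B cells IGKV8-16 (1.85% ± 0.0664, SD, n = 4), IGKV8-23-1 (1.84% ± 0.0752) and IGKV8-27 (1.8% ± 0.142) led the family and ranked 9, 10 and 12 among all 163 Vκ genes. Their libraries overlapped, so that these genes could not be placed in order. IGKV8-30 followed with 1.45% ± 0.102, below all libraries of IGKV8-27 and above all of IGKV8-24 (1.28% ± 0.0833), which overlapped with IGKV8-21 (1.13% ± 0.0347). IGKV8-28 (0.653% ± 0.0355) and IGKV8-19 (0.632% ± 0.0285) overlapped with each other and lay below IGKV8-21. IGKV8-18 (0.20% ± 0.0225) and IGKV8-26 (0.0302% ± 0.00942) came last, each without overlap with the gene above it. The signals of IGKV8-16, IGKV8-23-1, IGKV8-30, IGKV8-28 and IGKV8-19 are identical letter by letter. Their use ranged from 1.85% to 0.632%, and from 1.45% without IGKV8-16 and IGKV8-23-1, whose separate values are uncertain. The values of IGKV8-28 and IGKV8-19 may not be independent of each other either. Whether the signal bears on the use of these genes was not tested.

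**Figure D2:**
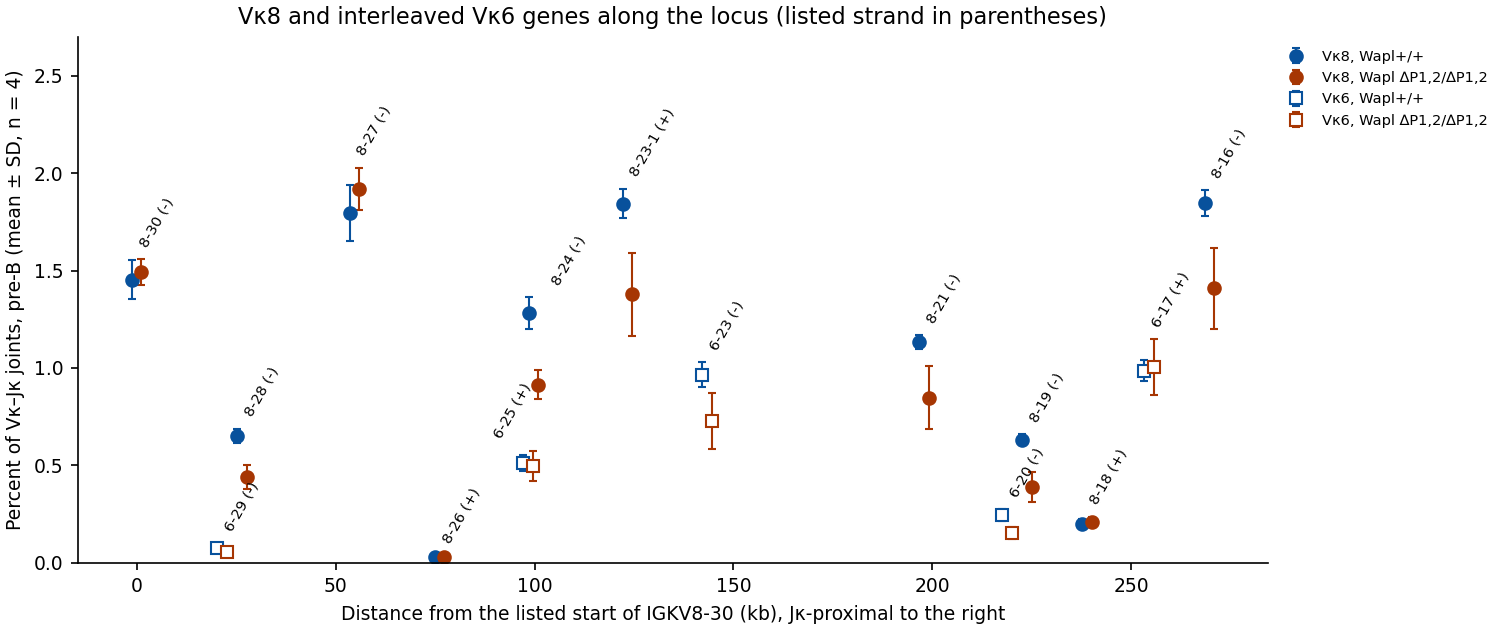
Mean percentage of Vκ-Jκ joints in pre-B cells (± SD, n = 4) for the Vκ8 genes (circles) and the interleaved Vκ6 genes (squares) against the distance in kb from the listed start of IGKV8-30, with the listed strand in parentheses. In the wild-type, use along the 270 kb varies between 0.0302% at IGKV8-26 and 1.85% at IGKV8-16, with 1.45% at IGKV8-30.

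How the near-identical genes were counted limits what their values mean. A value was called whole within 0.001 of a unit, and the unit was the smallest value above 0 of a library or, in 2 pre-B libraries, 1/5 or 1/2 of it. Where that smallest value is itself a fraction, fractions appear as whole units. IGKV8-16 and IGKV8-23-1 held fractions of a unit in 8 of 20 libraries each and had nearly equal values, with a ratio of IGKV8-16 to IGKV8-23-1 between 0.978 and 1.06 in the pre-B libraries and between 0.818 and 2 in the pro-B libraries. The use of either gene can therefore not be told from that of the other, and their sum is the safer value (3.69% ± 0.136 in wild-type and 2.79% ± 0.419 in mutant pre-B cells, SD, n = 4). IGKV8-19 and IGKV8-28 held fractions in 5 of 20 libraries each, with a ratio of IGKV8-19 to IGKV8-28 between 0.804 and 1.04 in the pre-B libraries, so that their values may not be independent of each other either. No fraction was seen for IGKV8-18 and IGKV8-26, which are 98.2% identical, in any of the 20 libraries. This does not show that they were counted apart, and the pair may share reads. IGKV8-18 was between 4.45 and 9.09 times as frequent as IGKV8-26 in the pre-B libraries. In the 3 wild-type pro-B libraries with a ratio, the ratio was between 0 and 1, on at most 2 units of each gene. In the 1 mutant pro-B library with a ratio, it was 3.

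**Figure D3:**
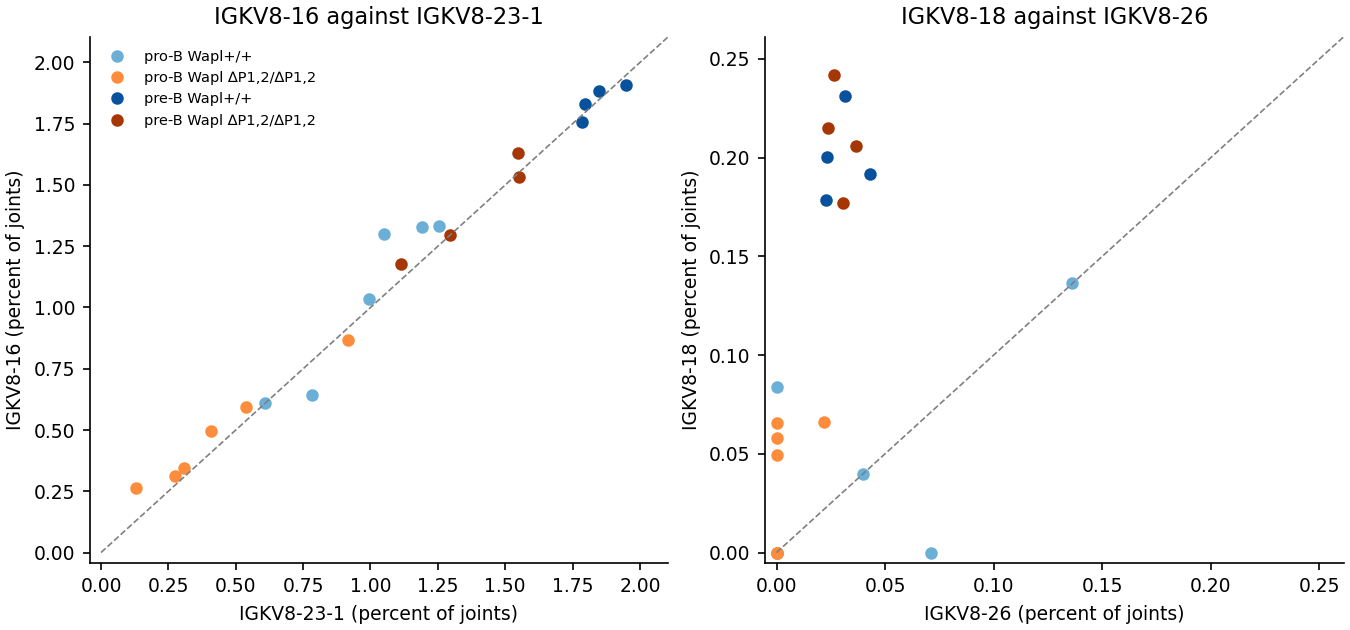
Percentage of Vκ-Jκ joints of both genes of a near-identical pair in each of the 20 libraries, with the dashed line marking equal values. IGKV8-16 and IGKV8-23-1 stay close to the line in pre-B libraries (ratio 0.978 to 1.06), whereas IGKV8-18 exceeds IGKV8-26 in every pre-B library.

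The first comparison asked which members differ between mutant and wild-type pre-B cells. IGKV8-16, IGKV8-19, IGKV8-21, IGKV8-23-1, IGKV8-24 and IGKV8-28 were lower in the mutant, to between 0.636 and 0.765 of the wild-type frequency, whereas IGKV8-18, IGKV8-27 and IGKV8-30 did not pass the test. Of the 10 members, 9 had a mean of at least 0.05% and were tested with limma on log2(percentage + 0.05) along with all 107 Vκ genes above this limit, and 6 were called at a Benjamini-Hochberg adjusted p-value below 0.05. Among all tested genes 67.3% were called, 45.8% as lower and 21.5% as higher. The same 6 members had no overlap between the genotypes, against 58.9% of all tested genes (38.3% as lower). The share of members called is thus close to that of Vκ genes in general, and what the members show is which of them were lower and by how much. Their median log2 fold change was -0.42, against -0.18 over all tested genes.

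IGKV8-24, a functional gene 505 kb from Jκ1, stood at 1.17%, 1.28%, 1.31% and 1.37% in the wild-type libraries and at 1.01%, 0.905%, 0.919% and 0.826% in the mutant libraries. The groups did not overlap, and the fold change was 0.725 (log2 -0.46, SE 0.08, limma adjusted p = 0.000117). IGKV8-19 stood at 0.598%, 0.635%, 0.667% and 0.628% in wild-type and at 0.471%, 0.401%, 0.399% and 0.283% in mutant libraries. This gave the lowest fold change of the family, 0.636 (log2 -0.65, SE 0.12, limma adjusted p = 0.000119), again without overlap. Its near relative IGKV8-28 went from 0.672%, 0.608%, 0.644% and 0.689% to 0.487%, 0.445%, 0.479% and 0.353%, a fold change of 0.695 (log2 -0.53, SE 0.10, limma adjusted p = 0.000252). Both genes of this pair, which may share joints, were thus lower in all 4 mutant libraries than in any wild-type library.

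IGKV8-16, the member closest to Jκ1, stood at 1.91%, 1.83%, 1.76% and 1.89% in wild-type and at 1.63%, 1.3%, 1.53% and 1.18% in mutant pre-B libraries. IGKV8-23-1, which cannot be told from it, stood at 1.95%, 1.8%, 1.78% and 1.85% against 1.55%, 1.29%, 1.55% and 1.11%. Neither gene overlapped between the genotypes, with fold changes of 0.765 (log2 -0.39, SE 0.09, limma adjusted p = 0.00149) and 0.748 (log2 -0.42, SE 0.10, limma adjusted p = 0.00110). IGKV8-21 stood at 1.10%, 1.17%, 1.11% and 1.15% in wild-type and at 1.02%, 0.740%, 0.951% and 0.680% in mutant libraries, a fold change of 0.748 (log2 -0.42, SE 0.11, limma adjusted p = 0.00280). In these 3 genes, mutant libraries 2 and 4 were the lowest, and libraries 1 and 3 came closest to the wild-type.

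IGKV8-27 and IGKV8-30 did not pass the test and had estimates above 1. IGKV8-27, the gene with the heptamer CACAATG, stood at 1.79%, 1.78%, 1.98% and 1.64% in wild-type and at 1.87%, 1.91%, 2.07% and 1.83% in mutant pre-B libraries. The groups overlapped, and the fold change of 1.07 had a 95% interval of 0.956 to 1.19 (limma adjusted p = 0.265). IGKV8-30, the member farthest from Jκ1, stood at 1.38%, 1.46%, 1.60% and 1.38% against 1.48%, 1.43%, 1.59% and 1.47%, a fold change of 1.03 with a 95% interval of 0.920 to 1.14 (limma adjusted p = 0.656). Of the 6 genes called lower, the highest upper bound of a 95% interval was 0.875, that of IGKV8-21 and of IGKV8-16. It lay below the intervals of IGKV8-27, IGKV8-30 and IGKV8-18. The 6 genes were picked by their calls in these same data, and differences between members were not tested. IGKV8-18 stood at 0.178%, 0.20%, 0.191% and 0.231% against 0.242%, 0.206%, 0.215% and 0.177%, a fold change of 1.04 with a 95% interval of 0.885 to 1.21 (limma adjusted p = 0.663). IGKV8-26 stayed between 0.0230% and 0.0430% in all 8 pre-B libraries, below the limit for testing.

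**Figure D4:**
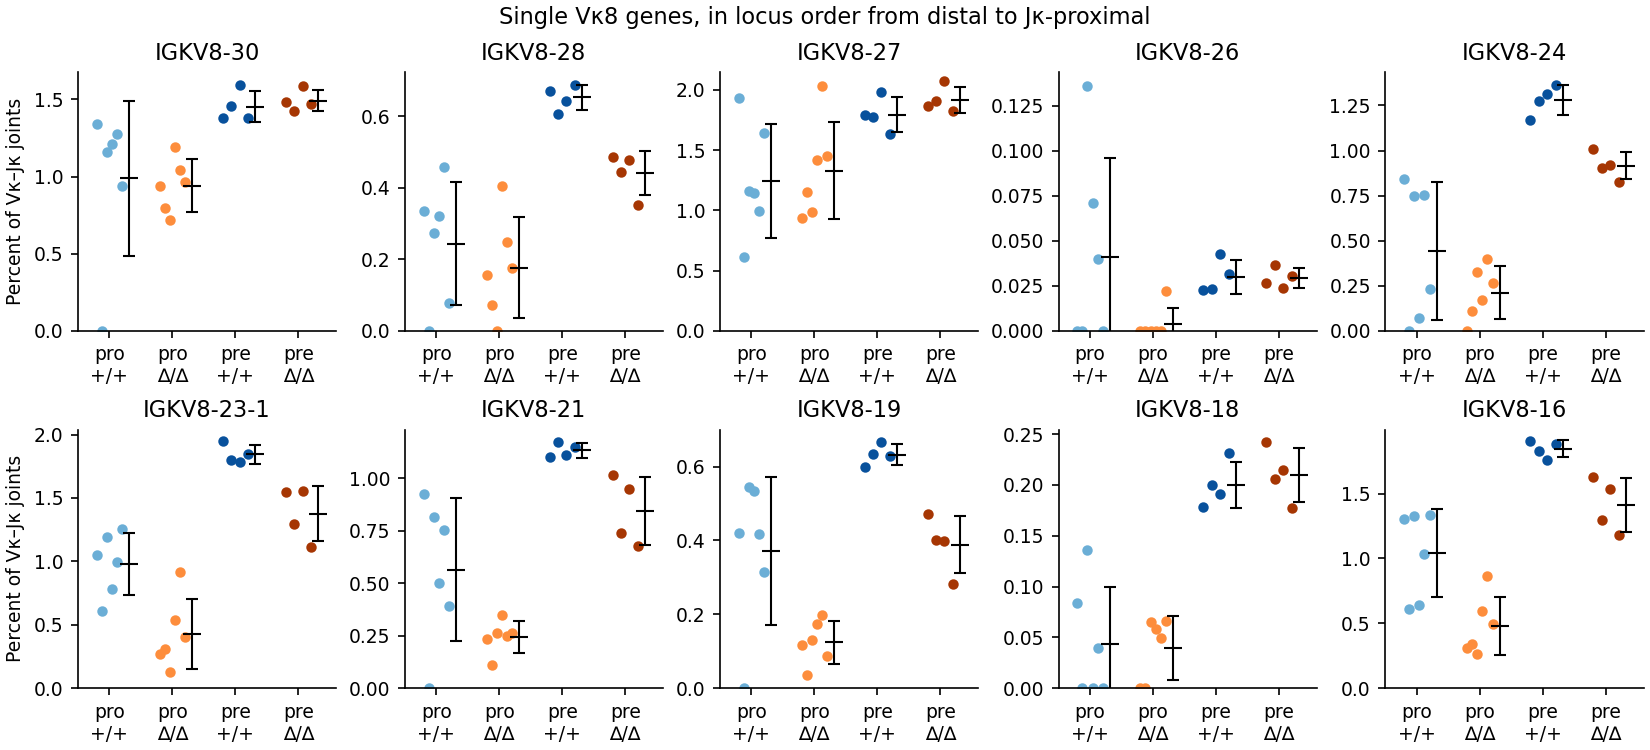
Percentage of Vκ-Jκ joints of each Vκ8 gene per library in pro-B and pre-B cells of both genotypes, each panel with its own axis from 0 and the bar showing the mean ± SD, cut at 0. In pre-B cells the genotypes separate at 6 genes and overlap at IGKV8-18, IGKV8-26, IGKV8-27 and IGKV8-30. Of all 107 tested genes, 58.9% separate in this comparison.

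The order of the members differed between the genotypes as a result. In mutant pre-B cells IGKV8-27 led alone at 1.92% ± 0.108 (SD, n = 4), above all libraries of IGKV8-30 (1.49% ± 0.0667), which overlapped with IGKV8-16 (1.41% ± 0.208). Among all 163 Vκ genes IGKV8-27 went from rank 12 to 10 and IGKV8-30 stayed at rank 21, while IGKV8-16 went from rank 9 to 26 and IGKV8-24 from 29 to 46. IGKV8-21 and IGKV8-30, which are 94.0% identical, can also be compared within single libraries. The ratio of IGKV8-21 to IGKV8-30 was 0.696 to 0.834 in wild-type and 0.462 to 0.684 in mutant pre-B libraries, and 0.412 to 0.706 in 5 wild-type and 0.136 to 0.364 in 6 mutant pro-B libraries. The genotypes did not overlap in this ratio in either cell type, but in pre-B cells it restates the values of both genes given above. Wild-type pro-B library 2, with IGKV8-30 at 0, has no ratio. The share of other gene pairs without overlap was not counted.

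IGKV8-27 and IGKV8-30, grouped here after their values were seen and therefore described without a test, together held 3.25% ± 0.237 (SD, n = 4) of all joints in wild-type and 3.41% ± 0.166 in mutant pre-B cells. The 8 other members together held 7.62% ± 0.144 and 5.62% ± 0.798. As a share of the Vκ8 joints, IGKV8-27 plus IGKV8-30 made up 29.9% ± 1.84 in wild-type and 38.0% ± 2.99 in mutant pre-B cells. In pro-B cells this share was 37.3% ± 5.48 (SD, n = 6) in wild-type and 58.5% ± 5.83 in mutant libraries, the highest wild-type library reaching 44.6% and the lowest mutant library 51.2%. Leaving out library 2 gave 38.1% ± 5.73 (SD, n = 5) for the wild-type.

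The second comparison asked the same of pro-B cells. Only IGKV8-16 and IGKV8-23-1 of the 8 members tested were called with limma, both lower in the mutant, beside 26% of all 104 tested genes (13.5% as lower and 12.5% as higher). IGKV8-16 ranged from 0.610% to 1.33% with a median of 1.17% in wild-type and from 0.262% to 0.868% with a median of 0.419% in mutant libraries. Its fold change was 0.473 (log2 -1.08, SE 0.33, limma adjusted p = 0.0235). IGKV8-23-1 ranged from 0.610% to 1.25% with a median of 1.02% in wild-type and from 0.131% to 0.918% with a median of 0.357% in mutant libraries, a fold change of 0.417 (log2 -1.26, SE 0.37, limma adjusted p = 0.0234). In each of them 5 of the 6 mutant libraries were below every wild-type library. Both genes count for 1 observation, since they cannot be told apart. No tested member was free of overlap, against 15.4% of all tested genes (6.73% as lower and 8.65% as higher). The median log2 fold change was -0.61 for the members and -0.26 over all tested genes, and -1.15 and -0.34 without wild-type library 2. With each library centred on its median, 1 member was called and the split of all calls into higher and lower went from 13 and 14 to 17 and 5. IGKV8-28 then had a log2 fold change of 0.01. Without wild-type library 1, 3 or 6 or mutant library 1, 2 or 3, IGKV8-23-1 stayed called (limma adjusted p from 0.0386 to 0.0499), whereas IGKV8-16 did not pass the test at log2 fold changes of -0.95 to -1.01 (limma adjusted p from 0.0511 to 0.0604). In these fits 16 to 24 of all tested genes were called.

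Library 2 of the wild-type pro-B cells held 1 unit each of IGKV8-16, IGKV8-23-1 and IGKV8-27, listed the other members at 0 and decided several values. IGKV8-19 stood between 0.0361% and 0.198% in the mutant libraries and between 0.313% and 0.545% in the 5 other wild-type libraries. With library 2 its fold change was 0.493 (limma adjusted p = 0.203), and without it log2 -1.57 (limma adjusted p = 0.000932). IGKV8-21 stood between 0.108% and 0.348% in the mutant libraries and between 0.392% and 0.924% in those 5, and its fold change went from 0.631 (limma adjusted p = 0.471) to 0.407 (limma adjusted p = 0.00138). Without library 2 these 2 genes therefore no longer overlapped between the genotypes, but the share of all tested genes that did so was not counted. In that fit 4 members were called, all lower, beside 47.1% of all tested genes called in either direction. IGKV8-30 went from a log2 fold change of 0.44 to one of -0.32 and IGKV8-27 from 0.13 to -0.05, and neither passed the test in either case.

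IGKV8-27 ranged from 0.610% to 1.93% (median 1.15%) in wild-type and from 0.937% to 2.03% (median 1.29%) in mutant pro-B libraries, a fold change of 1.09 with a 95% interval of 0.730 to 1.64 (limma adjusted p = 0.741). IGKV8-30 ranged from 0% to 1.34% (median 1.19%) in wild-type and from 0.721% to 1.19% (median 0.952%) in mutant libraries. Both overlapped widely between the genotypes. IGKV8-24 ranged from 0% to 0.840% against 0% to 0.397%, and IGKV8-28 from 0% to 0.457% against 0% to 0.406%, and neither passed the test. The wild-type values of 0% are those of library 2, and the other 5 libraries started at 0.0713% and 0.0784%. The log2 fold changes were -0.57 and -0.33 with it and -1.10 (limma adjusted p = 0.0745) and -0.77 (limma adjusted p = 0.186) without it. These ranges rest on few counts, with a median of 6.50 units of IGKV8-24 and of 4 units of IGKV8-28 per wild-type library. IGKV8-18 was listed at 0 in 3 wild-type and 2 mutant libraries and IGKV8-26 in 3 and 5, and differences of these genes were not detectable at this depth. Within the series, 9 of the 10 members (10 without library 2) were lower in mutant pro-B cells in 1 series and 6 in the other, against 6 and 8 of the 10 within the pre-B series.

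**Figure D5:**
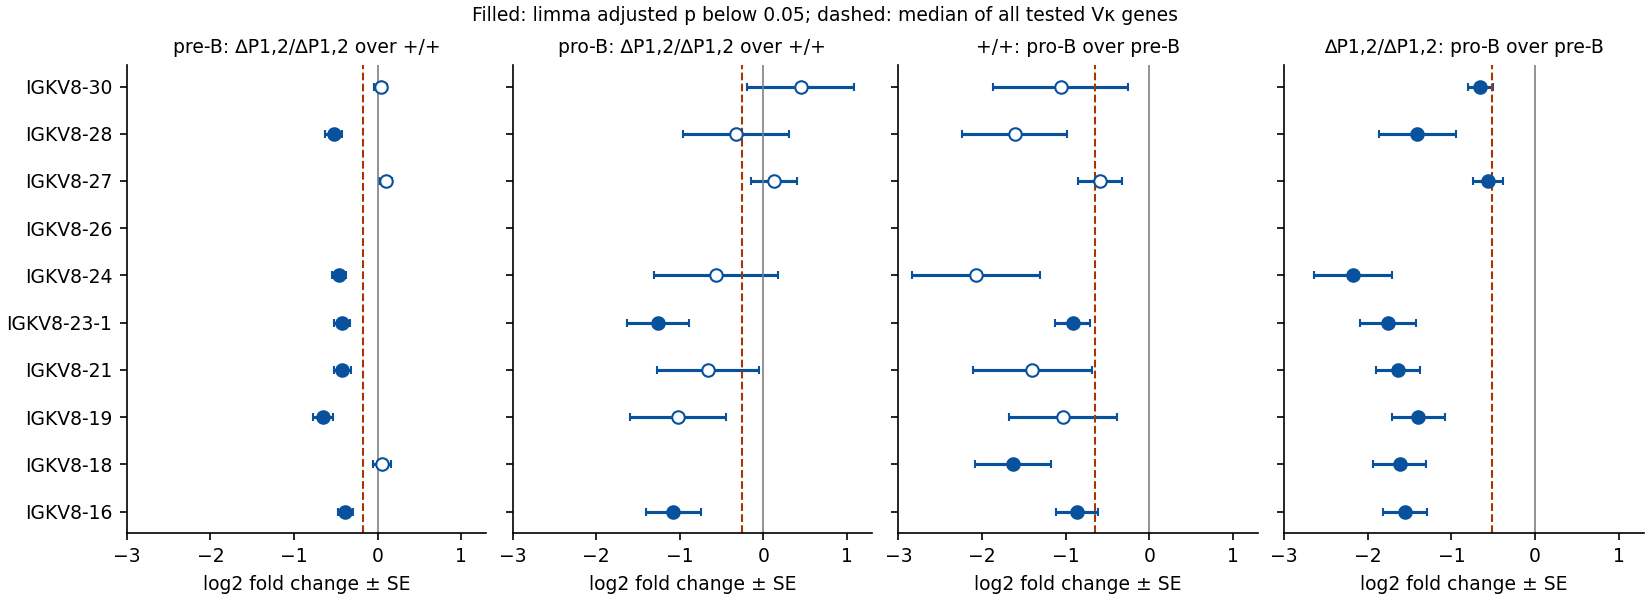
Log2 fold change ± SE of each tested Vκ8 gene in the 4 comparisons, with filled points for a limma adjusted p-value below 0.05 and the dashed line at the median of all tested Vκ genes. In pre-B cells the 6 genes called lower lie left of the dashed line at -0.18, while IGKV8-30, IGKV8-27 and IGKV8-18 lie to its right. Of all tested genes, 45.8% were called lower in this comparison.

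Whether the genotype difference differed between the cell types was tested by an interaction term over all 20 libraries. With limma 0 of the 9 members tested were called, and 0 had an unadjusted p-value below 0.05, beside 1.89% of all 106 tested genes called. With array weights, which let the libraries differ in precision, 4 of the 9 members were called, beside 19 of all 106 tested genes.

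Wild-type pro-B cells used the family less than wild-type pre-B cells. All 9 tested members had lower estimates in pro-B cells, and 8 of them, all but IGKV8-27, were lower in every pro-B library than in any pre-B library, a separation seen in 35.2% of all 105 tested genes (24.8% as lower and 10.5% as higher). IGKV8-16, IGKV8-18 and IGKV8-23-1 were called lower with limma, beside 19% of all tested genes (8.57% as lower). The median log2 fold change was -1.06 for the members and -0.65 over all tested genes, and with each library centred on its median 0 members were called. The split of all calls into higher and lower then went from 11 and 9 to 15 and 0.

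IGKV8-18 ranged from 0% to 0.136% in wild-type pro-B and from 0.178% to 0.231% in wild-type pre-B libraries, a fold change of 0.324 (log2 -1.63, SE 0.45, limma adjusted p = 0.0297). Its size depended on the pseudocount, with a log2 fold change of -2.82 at 0.01 (limma adjusted p = 0.0513) and of -0.75 at 0.2 (limma adjusted p = 0.0231), and summed with IGKV8-26 it did not pass the test (limma adjusted p = 0.0968). IGKV8-23-1 had a fold change of 0.530 (log2 -0.91, SE 0.21, limma adjusted p = 0.0142) and IGKV8-16 one of 0.550 (log2 -0.86, SE 0.25, limma adjusted p = 0.0311). The pro-B values of both stayed at or below 1.33%, under the lowest pre-B value of 1.76%. Without library 2, 6 members were called, beside 41.5% of all tested genes. IGKV8-21, IGKV8-24 and IGKV8-28 were then called as well, with fold changes of 0.589, 0.344 and 0.446, whereas IGKV8-27 (0.751) and IGKV8-30 (0.818) were not. Without any one of the 4 pre-B libraries 0 members were called, beside 3 to 6 of all tested genes, although the log2 fold changes stayed at -0.85 to -0.89 for IGKV8-16 (limma adjusted p from 0.0806 to 0.0978), at -0.89 to -0.93 for IGKV8-23-1 (0.0511 to 0.0617) and at -1.57 to -1.67 for IGKV8-18. With the series as a covariate 0 members and 3 of all 105 tested genes were called, at log2 fold changes of -0.89, -0.84 and -2.10 for the same genes, and without pro-B library 4 there were 1 member and 12 genes.

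In mutant mice the pro-B cells were lower than the pre-B cells at all 9 tested members, each with a limma adjusted p-value below 0.05, beside 54% of all 100 tested genes (42% as lower and 12% as higher). With the series as a covariate 3 members and 19 of all 100 tested genes were called. These members were IGKV8-16 (log2 -1.02), IGKV8-21 (log2 -1.36) and IGKV8-23-1 (log2 -1.10, against -1.76 without the covariate), while the other 6, among them IGKV8-24 (log2 -1.55, limma adjusted p = 0.0557), IGKV8-27 (log2 -0.26, limma adjusted p = 0.386) and IGKV8-30 (log2 -0.50, limma adjusted p = 0.110), did not pass the test. Without it, the median log2 fold change was -1.56 for the members and -0.51 over all tested genes. IGKV8-24 ranged from 0% to 0.397% in pro-B and from 0.826% to 1.01% in pre-B libraries and had the lowest fold change, 0.221 (log2 -2.17, limma adjusted p = 0.00106). IGKV8-27 (0.679, limma adjusted p = 0.0161) and IGKV8-30 (0.636, limma adjusted p = 0.00180) had the fold changes closest to 1. IGKV8-27 and IGKV8-28 overlapped between the cell types by 1 pro-B library each, and the 7 other tested members did not, against 41% of all tested genes (33% as lower and 8% as higher). With each library centred on its median, 6 members were called, IGKV8-27 turned to a log2 fold change of 0.05 that did not pass the test, and the split of all calls went from 12 higher and 42 lower to 33 and 19.

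In mutant pro-B cells IGKV8-27 and IGKV8-30 led the family at 1.33% ± 0.406 and 0.942% ± 0.169 (SD, n = 6), followed by IGKV8-16 at 0.479% ± 0.227, although neighbouring genes overlapped. The comparisons of cell types and of genotypes share libraries and are not independent of each other. Within the series that holds both cell types, all 10 members had lower means in pro-B cells of each genotype, and the family sum was lower by 4.89 percentage points in wild-type and by 3.80 points in mutant mice. For wild-type IGKV8-26 the means were nearly equal, 0.0370% in pro-B and 0.0373% in pre-B cells. Over all libraries its wild-type pro-B mean was the higher (0.0412% against 0.0302%). How many of all tested genes had lower means within this series was not counted. In that series alone, 5 members were called in mutant mice, beside 18 of all 100 tested genes, and 1 in wild-type mice, beside 7 of 105.

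The 5 Vκ6 genes that lie between the members were measured in the same libraries. In mutant pre-B cells 2 of the 5 were called, both lower, with a median log2 fold change of -0.30 over the 5, beside 67.3% of all tested genes called (45.8% as lower) and a median of -0.18. IGKV6-20 had a fold change of 0.692 (limma adjusted p = 0.00120) and IGKV6-23 one of 0.756 (limma adjusted p = 0.00501). In mutant pro-B cells 2 of 4 tested Vκ6 genes were called lower, with a median log2 fold change of -1.26, beside 26% of all tested genes called (13.5% as lower) and a median of -0.26. IGKV6-23 stood between 0.588% and 1.22% in wild-type and between 0.0361% and 0.248% in mutant pro-B libraries, without overlap, and its fold change of 0.179 (limma adjusted p = 0.001) was further from 1 than that of any tested Vκ8 gene. In pro-B against pre-B cells 1 of 4 was called lower in wild-type and 4 of 4 in mutant mice, with median log2 fold changes of -0.91 and -1.92. Of all tested genes, 8.57% and 42% were called lower in these comparisons, and with the series as a covariate the calls in either direction fell to 3 of 105 and 19 of 100.

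Of the Vκ8 rows outside the 10, IGKV8-22 and IGKV8-31, which are classed as pseudogenes, were listed at 0 in all 20 libraries. IGKV8-34, a functional gene 1.39 kb from the H3K27ac peak mentioned above, took 0.239% ± 0.0449 (SD, n = 4) in wild-type pre-B and 0.596% ± 0.130 (SD, n = 6) in wild-type pro-B cells. The estimate was higher in pro-B cells under all 22 alternatives but called in 12 of them, not with the series as a covariate (limma adjusted p = 0.234) nor without any one pre-B library (limma adjusted p from 0.0822 to 0.118). Its fold change was 2.21 (limma adjusted p = 0.0348), whereas all 9 tested members had estimates below 1 in the same comparison. In mutant mice IGKV8-34 overlapped between the cell types and did not pass the test (fold change 1.21, limma adjusted p = 0.693).

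IGKV12-40, IGKV6-15 and IGKV6-25 varied most like the family sum on the log2 scale among 97 Vκ genes other than the 10, with a Pearson r of 0.950, 0.928 and 0.926 over the 20 libraries. The libraries come from 4 groups with different means and differ in depth, so that r describes the differences between the groups as well. IGKV12-40 averaged 0.80% in wild-type and 0.545% in mutant pre-B cells, and 0.373% and 0.103% in the respective pro-B cells.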

How the data were processed

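VDJ-seq of the Igk locus was analysed in 20 libraries. Per the study's methods, genomic DNA was sheared, ligated to adapters with molecular identifiers, extended with biotinylated Jκ primers, captured, amplified and sequenced on a MiSeq instrument. The authors deposited 1 percent value per Vκ gene and library, and the total behind the percent values and the treatment of reads that match several genes are not given in the sources used here. The deposited values of a library summed to between 0.0740 and 6.77 and were rescaled here to 100 over all 163 Vκ genes. The deposited H3K27ac peaks carry a score of 0 throughout and served for distances only. Gene positions, strands and classes came from the study's gene list on mm9, and sequences from the NCBIM37 genome of the same build. The heavy-chain libraries and the Hi-C samples were not used here.

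Libraries were grouped by the labelled cell type and genotype. Each comparison was fitted with limma 3.58.1 in R 4.3.3 (empirical Bayes with trend) on log2(percentage + 0.05) of the compared libraries, restricted to genes whose mean reached 0.05%, with Benjamini-Hochberg adjustment over all tested genes and a threshold of 0.05. A fold change on this scale understates that of rarely used genes. The interaction used all 20 libraries. Scripts were tested on simulated data. Identities came from blastn 2.17.0+ between the listed spans. RSS windows were searched from 10 bases before to 45 bases after the coding end. Figures were drawn with matplotlib 3.10.9 in Python 3.11.15. The members, the Vκ6 list and the tests were chosen with earlier results of these data known. All 10 members are named, values are given for at most 3 of the Vκ6 genes, and the 3 genes most like the family sum are named by Pearson r. The alternatives were the pseudocount, the filter, untransformed percentages, Holm's adjustment, the series of experiment numbers as a covariate or alone, array weights, centring on the median, the denominator, summed pairs and each library left out.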

Additional observations from a re-analysis of the deposited data

Results flagged for a closer look

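Single libraries stood apart from the others of their group by Dixon's criterion at 95% in 2 of 44 sets of values (the family sum and each member in each group), and chance flags about 1 in 20 groups. IGKV8-30 was listed at 0 in wild-type pro-B library 2, whereas the next lowest of the 6 libraries had 0.940%. This is the library with 164 units in all. IGKV8-26 had 0.0220% in mutant pro-B library 6 and was listed at 0 in the 5 others, a value that rests on 1 unit. The interaction of genotype and cell type called 0 of 9 members.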

How the results depend on the processing

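In the mutant pre-B comparison 6 members were called, and the 11 alternatives and the omission of each of the 8 libraries gave 5 or 6. The pro-B count of 2 became 0 with Holm's adjustment, 1 with median centring, 1 with the pairs summed and 5 with array weights, and ranged from 1 to 4 when single libraries were left out. It was 1 without wild-type library 1, 3 or 6 or mutant library 1, 2 or 3, and 4 without wild-type library 2. The count of 3 in wild-type pro-B against pre-B cells became 0 with Holm's adjustment, with the series as covariate or with median centring, 1 with the pairs summed or in the shared series, 5 with a pseudocount of 0.2%, 6 with untransformed percentages and 7 with array weights. It ranged from 0 to 6, with 0 without any single wild-type pre-B library, 1 without wild-type pro-B library 4 and 6 without library 2. The count of 9 in mutant pro-B against pre-B cells became 3 with the series as covariate and 5 in the shared series, and the interaction count of 0 became 4 with array weights. The cause of these changes was not tested.

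Centring each library on its median turned the log2 fold change of IGKV8-27 between mutant pro-B and pre-B cells to 0.0488 and that of IGKV8-28 between the pro-B genotypes to 0.00775. Between the pro-B genotypes, IGKV8-30 turned to -0.0460 percentage points untransformed and to a log2 fold change of -0.26 with array weights, and ranged from -0.32 to 0.64 over single omissions, IGKV8-27 from -0.0503 to 0.27 and IGKV8-28 from -0.77 to 0.0495. IGKV8-18 in pre-B cells ranged from -0.00495 to 0.12. None of these values passed the test. Over all tested genes, Holm's adjustment left 44 of 72 calls in the pre-B comparison, 7 of 27 in the pro-B comparison, 3 of 20 in wild-type pro-B against pre-B cells and 27 of 54 in the mutant. The pro-B count became 49 with array weights or without wild-type library 2 and 16 without mutant library 2. The wild-type count of 20 became 63 with array weights, 39 untransformed, 13 with the other denominator, 3 with the series as covariate, 7 in the shared series, 44 without pro-B library 2, 12 without pro-B library 4 and 3 to 6 without a pre-B library. The mutant count of 54 became 19 with the series as covariate and 18 in the shared series. The interaction count of 2 became 19 with array weights, 6 untransformed, 1 with median centring or the other denominator and 10 without wild-type pro-B library 2.

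The family sums as deposited were 0.00865 and 0.01001 in wild-type and mutant pro-B and 0.623 and 0.522 in pre-B libraries, so that the pro-B direction turned on that scale and the pre-B direction did not. With the 2 most used Vκ genes left out of the denominator the pre-B sums were 11.7% and 9.98%. Within the series that holds wild-type pro-B library 2, the pro-B difference of the family sum was -2.92 percentage points and, without this library, -4.93. Of 745 values of single genes under the alternatives, 664 kept their direction and side of the threshold. No paired analysis was possible because the labels give no replicate numbers. Pro-B depth limits the precision of all pro-B values, and no replicate was available for the H3K27ac peaks.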
